A study of Mus musculus with 6 samples.

Results

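The comparison described here sets mouse embryonic stem cells after 24 h of doxycycline against the same kind of cells after 12 h, over 330 mature microRNAs (miRNAs). Both libraries came from 129/Ola cells in which Wt1 was knocked out (labelled Wt1 KO) and in which Wt1 was induced with doxycycline (dox) at 1 µg/ml, per the labels and the design text. Both groups therefore share the knockout, the inducible Wt1 and the drug, and they differ in the labels by the hours of dox. The cells grew on gelatin in medium with serum and leukemia inhibitory factor. The sources used here do not name the clone or the promoter of the inducible gene, nor say whether both libraries came from 1 culture. A small RNA library does not measure the Wt1 mRNA, so the induction itself was not checked here. Each group had 1 library, so no difference below has a replicate check, and every statement compares these libraries rather than times in general. The members are all entries of the deposited tables with a mean of at least 50 uniquely matched reads over the 2 libraries, which left 330 of 1899 entries, 8 of them standing for several miRNAs with identical mature sequences. The untreated Wt1 KO library was not used for the ratios.

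A miRNA is a short RNA that is cut from a hairpin precursor and guides the Argonaute protein to messenger RNAs, mainly through its seed, bases 2 to 8 from its 5′ end. Each hairpin yields a 5p and a 3p arm, of which one is usually loaded and kept and the other mostly degraded. Mouse embryonic stem cells are dominated by the miR-290 cluster, which supports rapid cycling. The miR-302 cluster shares its main seed and is typical of primed pluripotency. The let-7 family carries another seed and accompanies differentiation. Wt1 encodes a zinc finger transcription factor of kidney and gonad development.

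The sequences of the first group are shown because they share a seed, while the ratios of 24 h over 12 h were above 0 for the 3 of the miR-302 cluster and below 0 for 2 of the 3 of the miR-290 cluster. All sequences are the mature sequences in the deposited tables, written 5′ to 3′ with T for U and with the seed in capitals.
miR-302d-3p: tAAGTGCTtccatgtttgagtgt
miR-302a-3p: tAAGTGCTtccatgttttggtga
miR-302b-3p: tAAGTGCTtccatgttttagtag
miR-294-3p: aAAGTGCTtcccttttgtgtgt
miR-295-3p: aAAGTGCTactacttttgagtct
miR-291a-3p: aAAGTGCTtccactttgtgtgc

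The let-7 members below differ from each other by a few bases outside the seed, so reads can be shared or lost between them. They are shown because 4 of them had nearly the same ratio.
let-7e-5p: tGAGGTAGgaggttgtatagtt
let-7a-5p: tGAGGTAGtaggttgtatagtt
let-7c-5p: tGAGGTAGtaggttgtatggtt
let-7f-5p: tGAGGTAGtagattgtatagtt

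The following 5 are among the other miRNAs called higher at 24 h and are shown for their different seeds.
miR-155-5p: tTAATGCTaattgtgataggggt
miR-196a-5p: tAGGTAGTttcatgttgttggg
miR-669o-5p: tAGTTGTGtgtgcatgtttatgt
miR-3535: tGGATATGatgactgattacctgaga
miR-34b-3p: aATCACTAactccactgccatc

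The next are the lower ones, of which 5 are arms of hairpins whose other arm had more reads.
miR-92a-1-5p: aGGTTGGGatttgtcgcaatgct
miR-290a-3p: aAAGTGCCgcctagttttaagccc
miR-182-3p: gTGGTTCTagacttgccaact
miR-21a-3p: cAACAGCAgtcgatgggctgtc
miR-466d-5p: tGTGTGTGcgtacatgtacatg
miR-3963: tGTATCCCacttctgacac
miR-5126: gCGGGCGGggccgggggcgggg
miR-6240: cCAAAGCAtcgcgaaggcccacggcg

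The 24 h library was the deeper one, with 3629658 uniquely matched reads against 1227428 at 12 h, a ratio of 2.96. The members held 99.8% of the reads in each library, and their median count was 522.5 at 24 h and 157.5 at 12 h. The minimum is a mean of unscaled counts, so 57 members passed it with fewer than 50 reads at 12 h, and none with fewer than 50 at 24 h. Just inside the minimum lay miR-222-3p with 20 and 81 reads at 12 h and 24 h, miR-34b-3p with 13 and 91, and miR-142a-5p with 33 and 71. Just outside it lay miR-145a-5p with 19 and 80 reads, miR-7224-3p with 35 and 64, and miR-132-3p with 22 and 75. Levels are given as normalised CPM, that is reads scaled to a common total, after TMM scaling (trimmed mean of M values), on which 3 reads equal 2.53 CPM at 12 h and 0.799 CPM at 24 h. Ratios are log2 of 24 h over 12 h. The brackets are 95% intervals for counting error only, since 1 library per side gives no spread between samples. They treat each read as independent. Reads amplified without molecular identifiers are not independent molecules, so the intervals may be too narrow even for counting error. By the size rule a miRNA is called higher from a ratio of 1 upwards, or lower from -1 downwards, where the interval also leaves out 0.

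The miRNA profiles at 24 h and 12 h were close. The ratios had a median of 0.02, with quartiles of -0.26 and 0.31, and 246 of the 330 miRNAs (74.5%) lay within 0.5 of 0. By the size rule 11 miRNAs (3.33%) were higher at 24 h and 8 (2.42%) lower, 19 in all (5.76%). Scaling moved this split: as CPM of the total it was 15 higher and 5 lower, and with TMM over all 6 libraries of the study 14 and 5. The interval excluded 0 for 187 miRNAs, 93 above and 94 below. It lay wholly past the size rule for 1 higher miRNA, miR-302d-3p, and for 4 lower ones, miR-92a-1-5p, miR-3963, miR-5126 and miR-6240.

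**Figure D1:**
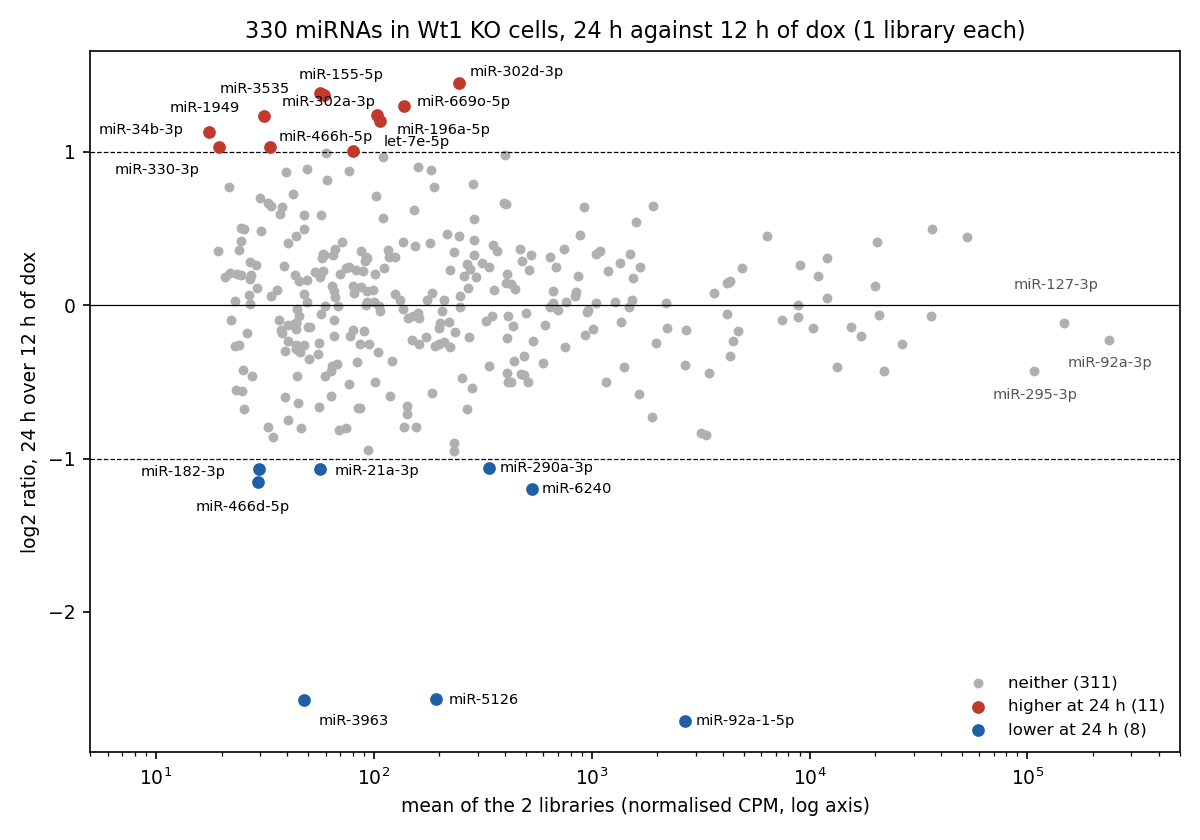
Log2 ratio of 24 h over 12 h (vertical axis) against the mean level of the 2 libraries in normalised CPM (horizontal log axis), 1 point per miRNA; dashed lines mark the size rule at 1 and -1. The 11 higher miRNAs (red) lie at 246 CPM or below, while the lower ones (blue) include miR-92a-1-5p at 2687 CPM, and the 3 most abundant miRNAs lie between -0.43 and -0.12.

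The 10 most abundant miRNAs held 71.1% [71.1 to 71.2] of the reads at 12 h and 70.0% [70.0 to 70.1] at 24 h (Wilson intervals), and none passed the size rule. miR-92a-3p, the main product of the miR-17 clusters, was at 255032 CPM at 12 h and 218283 at 24 h (-0.22 [-0.23 to -0.22]). miR-127-3p, from the imprinted Dlk1-Dio3 locus, was at 153057 and 141316 CPM (-0.12 [-0.12 to -0.11]). miR-295-3p, the most abundant member of the miR-290 cluster, was at 123367 and 91396 CPM (-0.43 [-0.44 to -0.42]). These 3 had ratios below 0 that did not reach the size rule. On the other side stood miR-182-5p, a miRNA of sensory cells, with 44772 and 61019 CPM (0.45 [0.43 to 0.46]). miR-541-5p, of the Dlk1-Dio3 locus, had 30253 and 42633 CPM (0.49 [0.48 to 0.51]). The others of the 10 were miR-292a-5p, miR-292a-3p, miR-291a-5p and miR-294-3p of the miR-290 cluster and miR-22-3p, with ratios from -0.43 to 0.41.

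The pluripotency clusters were not shifted alike. The miR-302 cluster, 3 of whose 10 entries were measured, lay above 0 throughout. Of these 3, 2 were called higher, beside 3.33% of all 330 miRNAs, and the median was 1.24 against 0.02 over all miRNAs. miR-302d-3p had 156 reads (132 CPM) at 12 h and 1352 reads (360 CPM) at 24 h, a ratio of 1.45 [1.21 to 1.70]. miR-302a-3p had 73 reads (61.6 CPM) and 548 (146 CPM), at 1.24 [0.89 to 1.62]. miR-302b-3p had 64 reads (54.0 CPM) and 372 (99.0 CPM), at 0.87 [0.49 to 1.28], and did not pass the size rule. The cluster was a small part of either library. Its entries summed to 0.0260% [0.0233 to 0.0290] of the reads at 12 h and 0.0652% [0.0626 to 0.0679] at 24 h. In RefSeq on GRCm38.p6, miR-302d-3p lies at chr3:127545665-127545687 on the plus strand and miR-302b-3p at chr3:127545275-127545297, with no GENCODE M21 host gene on that strand.

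Of the 13 measured members of the miR-290 cluster 12 lay below 0, 1 was called lower and none higher, beside 2.42% and 3.33% of all 330 miRNAs, with a median of -0.33. The called member was miR-290a-3p, with 542 reads (457 CPM) at 12 h and 822 (219 CPM) at 24 h, at -1.06 [-1.22 to -0.90]. Its call was lost as CPM of the total (-0.963), with TMM over 6 libraries (-0.986) and without a minimum count (-0.977). miR-291a-3p, a seed partner of miR-302, was at 4310 and 2395 CPM (-0.85 [-0.90 to -0.80]). miR-294-3p was the member above 0, at 17553 and 23389 CPM (0.41 [0.39 to 0.44]). The count of 12 below 0 depends on the scaling. As unscaled shares of all reads, miR-292a-5p (3.57% at 12 h, 3.65% at 24 h) and miR-292a-3p (2.06% and 2.12%) were slightly higher at 24 h. The whole cluster held 23.4% [23.4 to 23.5] of the reads at 12 h and 21.09% [21.05 to 21.13] at 24 h. Among the 6 miRNAs with the seed shown above, the 3 of the miR-302 cluster supplied 0.170% [0.151 to 0.190] of the reads of the group at 12 h and 0.513% [0.493 to 0.535] at 24 h. Reads with this seed thus came almost wholly from the miR-290 cluster at both times.

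In the let-7 family 1 of 6 measured members was called higher, beside 3.33% of all 330 miRNAs, and 3 more had ratios just under the size rule. let-7e-5p had 63 reads (53.1 CPM) at 12 h and 402 (107 CPM) at 24 h, at 1.01 [0.62 to 1.42]. let-7a-5p was at 0.99 [0.55 to 1.47], let-7c-5p at 0.98 [0.81 to 1.16] and let-7f-5p at 0.89 [0.41 to 1.41], from 48, 319 and 41 reads at 12 h and 303, 1996 and 241 at 24 h. let-7i-5p (-0.03 [-0.48 to 0.45]) and let-7d-3p (-0.26 [-0.89 to 0.39]) had intervals that spanned 0. The median of the 6 was 0.93. let-7a-5p and let-7f-5p passed the minimum count only through the 24 h library, so their ratios and this median are no separate support for a shift of the family. These ratios sit at the edge of the size rule. The call of let-7e-5p was lost by the median of ratios (0.989), with minimum mean counts of 10 (0.991) and 200 (0.996) and with a prior count of 2 (0.999), while let-7a-5p and let-7c-5p were called as CPM of the total (1.09 and 1.08). let-7e-5p lies in an intron of Spaca6 at chr17:17830366-17830387 beside miR-99b and miR-125a, whose main arms were at 0.14 [0.10 to 0.19] for miR-99b-5p and 0.45 [0.41 to 0.49] for miR-125a-5p. let-7a-5p and let-7f-5p have neighbouring loci on chromosome 13, within exons of 6720427I07Rik, a long noncoding RNA. let-7f-5p has a further locus on chromosome X, in an intron of Huwe1, and its reads cannot be assigned to 1 of them.

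The blood, HOX and miR-34 lists, with 5, 3 and 3 measured members, held 1 higher miRNA each, from low levels. This stands beside 3.33% of all 330 miRNAs, and in lists this small 1 call is not read as a trait of the list. In the blood list miR-155-5p, known from activated immune cells and lying in an exon of Mir155hg at chr16:84714143-84714165, had 39 reads (32.9 CPM) at 12 h and 320 (85.2 CPM) at 24 h, at 1.37 [0.89 to 1.89], while the other 4 measured blood markers lay between -0.60 and -0.44. miR-196a-5p, encoded within HOX clusters, had 77 (64.9 CPM) and 561 (149 CPM), at 1.20 [0.86 to 1.56]. Of the other measured HOX miRNAs miR-10b-5p was at 0.90 [0.64 to 1.18] and miR-10a-5p at 0.20 [-0.16 to 0.59]. miR-34b-3p, of the p53-responsive miR-34 family, had 13 reads (10.96 CPM) and 91 (24.2 CPM), at 1.13 [0.30 to 2.11]. Its family members with more reads were both at 0.66, miR-34a-5p [0.50 to 0.82] and miR-34c-5p [0.50 to 0.83]. miR-34b-3p passed the minimum count only through the 24 h library and drops out with a minimum mean of 20 CPM, so its call says nothing about the miR-34 list. miR-155-5p also passed the minimum only through the 24 h library, so its call says nothing about the blood list. The HOX list had 3 measured members, all above 0, with a median of 0.90, which was 0.54 with a minimum mean count of 10.

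The rest of the higher miRNAs have few described roles. miR-669o-5p and miR-466h-5p come from the large rodent cluster in an intron of Sfmbt2. The former had 94 reads (79.3 CPM) and 732 (195 CPM), at 1.30 [0.99 to 1.62], and the latter 26 (21.9 CPM) and 169 (45.0 CPM), at 1.03 [0.44 to 1.69]. miR-3535 had 37 reads (31.2 CPM) and 307 (81.7 CPM), at 1.38 [0.89 to 1.92], and its locus, chr1:86352062-86352087 on the minus strand, lies inside an annotated small nucleolar RNA gene in an intron of Ncl. miR-1949 was at 1.23 [0.60 to 1.96] and miR-330-3p at 1.03 [0.25 to 1.94]. The latter call rested on 15 reads at 12 h and was lost with a prior count of 2 (0.999). Of the 11 higher miRNAs 6 had fewer than 50 reads at 12 h, as had 2 of the 8 lower ones, and their intervals are wide. All of these passed the minimum count only through the 24 h library.

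The lowest ratio belonged to miR-92a-1-5p, which is the usually discarded arm of its hairpin in the noncoding RNA Mir17hg, the host of the miR-17 cluster, at chr14:115044437-115044459. It had 5528 reads (4662 CPM) at 12 h and 2679 (713 CPM) at 24 h, a level 6.54-fold lower at 24 h, at -2.71 [-2.78 to -2.64]. Its partner arm miR-92a-3p, which is also made from a second hairpin, was at -0.22. The minor arm made up 1.80% [1.75 to 1.84] of the reads of both arms at 12 h and 0.326% [0.314 to 0.338] at 24 h. The other minor arm of miR-92a, miR-92a-2-5p, was at -0.80 [-1.24 to -0.36], from 70 and 127 reads. The rest of the miR-17 clusters and paralogs stayed inside the size rule: of 22 measured members 8 were above 0 and 14 below, and their median of -0.09 took the other sign, 0.01, as CPM of the total.

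Next came miR-3963 and miR-5126, entries with unusual sequences. miR-3963 is, at 19 nt, the shortest of the 330, and had 97 reads (81.8 CPM) at 12 h and 51 (13.6 CPM) at 24 h, at -2.57 [-3.11 to -2.09]. miR-5126 consists of G and C alone and had 393 reads (331 CPM) and 209 (55.6 CPM), at -2.57 [-2.82 to -2.33]. miR-6240, whose sequence has been described as part of ribosomal RNA and which stood in the list for RNA quality, had 875 reads (738 CPM) and 1209 (322 CPM), at -1.20 [-1.32 to -1.07]. These 3 entries had higher levels in the 12 h library, as had the 5 minor arms called lower, and their part in the other differences was not tested.

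**Figure D2:**
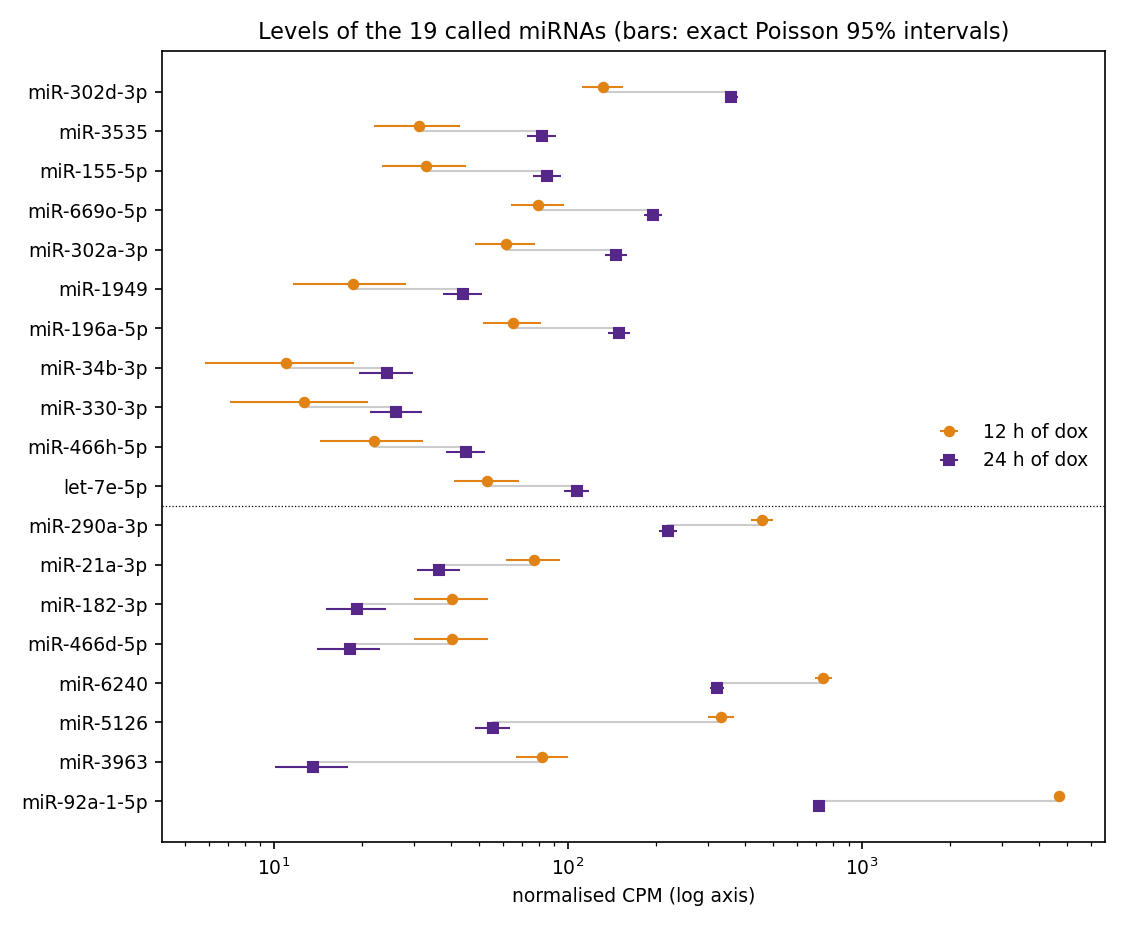
Normalised CPM (horizontal log axis) of the 19 called miRNAs at 12 h (circles) and 24 h (squares), with exact Poisson 95% intervals, ordered by ratio. Above the dotted line the 24 h level is higher, from 360 CPM for miR-302d-3p down to 24.2 CPM for miR-34b-3p, and below it the 12 h level is higher, up to 4662 CPM for miR-92a-1-5p.

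The ratios of the 2 arms of a hairpin went together only weakly in these libraries. Over 73 pairs of measured arms the ratios of the 5p and 3p arms correlated at 0.14 by Pearson and 0.18 by Spearman, and 41 pairs had the same sign. A few pairs share an arm, and both arms share the libraries, so the pairs are not independent. Some arms, such as miR-92a-3p, are made from more than 1 hairpin. Some minor arms had few reads and wide intervals, such as miR-330-3p with 15 reads at 12 h and 98 at 24 h (1.03 [0.25 to 1.94]). The part of counting error in the weak correlation was not tested. The arm with the lower mean CPM, here the minor arm, had the lower ratio in 45 pairs and the higher one in 28, with a median of -0.16 against -0.02 for the major arm. In 3 pairs (miR-379, miR-28a and miR-30e) the order of the arms differed between the libraries, and over the other 70 pairs the minor arm had the lower ratio in 44 and the higher one in 26. All 5 lower calls within the pairs fell on minor arms, and so did the 1 higher call, miR-330-3p. Over all 330 miRNAs 2.42% were called lower and 3.33% higher. The calls of miR-290a-3p, miR-182-3p and miR-21a-3p were lost as CPM of the total and with TMM over 6 libraries. miR-330-3p, miR-182-3p and miR-466d-5p passed the minimum count only through the 24 h library. The calls are thus not read as a trait of minor arms.

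In 5 pairs the arms differed by at least 1 on the log2 scale, and in the 4 whose order was the same in both libraries the minor arm had the lower ratio. miR-182-3p had 48 reads at 12 h and 72 at 24 h (-1.07 [-1.63 to -0.52]), while miR-182-5p was at 0.45. miR-21a-3p had 91 and 137 reads (-1.07 [-1.47 to -0.67]), while miR-21a-5p, an abundant miRNA of fibroblasts and many tumours, was at 0.20 [0.05 to 0.36]. The share of miR-21a-3p in both arms was 16.8% [13.9 to 20.1] at 12 h and 7.67% [6.52 to 8.99] at 24 h. The calls of miR-182-3p and miR-21a-3p were both lost as CPM of the total (-0.972 and -0.970), with TMM over 6 libraries (-0.995 and -0.994) and without a minimum count (-0.987 and -0.985). miR-466d-5p had 48 and 68 reads (-1.15 [-1.72 to -0.60]) and miR-466d-3p was at 0.12. In the last pair neither arm was called: miR-379-5p, the first miRNA of its Dlk1-Dio3 cluster, was at 0.88 [0.63 to 1.14] and miR-379-3p at -0.21. The minor arm of this pair was not fixed, miR-379-3p having 59.1% [54.0 to 64.0] of its reads at 12 h and 40.4% [37.9 to 42.9] at 24 h.

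**Figure D3:**
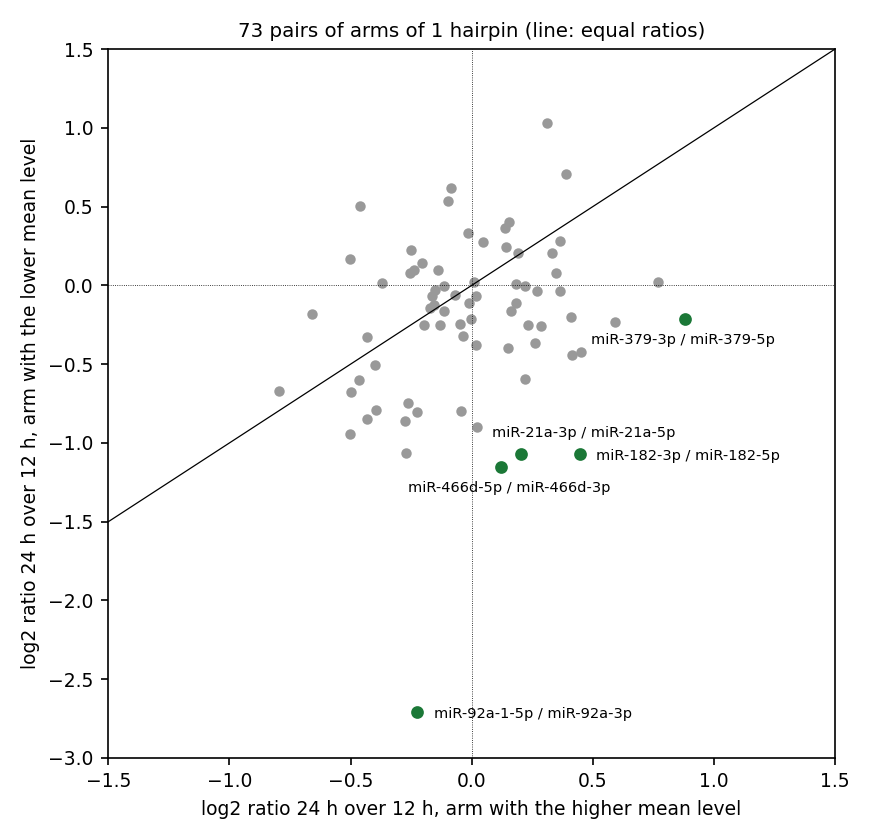
Log2 ratio of the arm with the lower mean level (vertical axis) against that of the arm with the higher mean level (horizontal axis) for 73 pairs; the line marks equal ratios. The 5 pairs whose arms differ by at least 1 (green, named minor / major) all lie below the line, with miR-92a-1-5p farthest from it.

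The other lists were read against the share of all 330 miRNAs that were called, 3.33% higher and 2.42% lower. In the Sfmbt2 intron cluster 30 members were measured and 23 of them were above 0, 2 were called higher and 1 lower, with a median of 0.20. Of the called ones, miR-466h-5p, with 26 reads at 12 h, passed the minimum only through the 24 h library. So did miR-466d-5p, the lower one, with 48. Several uncalled members above 0 also passed only through the 24 h library. The count of 23 and the median are thus no separate support for a shift of the cluster. The median was 0.10 with a minimum mean count of 10 and 0.12 with multi-matched reads added. The members that share 1 seed, miR-669l-5p, miR-669f-5p and the entry for miR-669p-5p and miR-669a-5p, lay between 0.59 and 0.97. A further 3 entries of the cluster that share another seed, among them miR-466d-3p, lay between -0.17 and 0.12. None of the 15 measured miRNAs of the anti-Rtl1 group of Dlk1-Dio3 (median -0.12) or of the 45 from miR-379 to miR-410 (median 0.02) was called. Lists of 5 to 9 measured members without a call were the miR-200 family of epithelial cells (median 0.03), the miR-30 family (-0.15), miR-23, miR-27 and miR-24 (0.09), the miR-130 and miR-301 family (-0.25), the miR-181 family (-0.39), miRNAs reported to target pluripotency factors (0.07), miRNAs of non-canonical biogenesis (0.28) and the miR-15/16 family with miR-322, a brake on the cell cycle (-0.01, or 0.09 as CPM of the total). The kidney-enriched list (3 measured, median -0.18) and the X-linked testis cluster (4 measured, median -0.34) had no call either. Without a minimum count the kidney median was 0.66, the X-linked one -0.04 and that of the miR-200 family -0.24. The miR-99/100 and miR-125 list, which includes let-7e, had 1 of 6 called higher (median 0.28) and the miR-183 cluster 1 of 5 called lower, the minor arm miR-182-3p. The median of the miR-183 cluster was -0.36, or 0.25 with a minimum mean count of 200 and 0.03 without a minimum, while its summed reads were 5.18% [5.14 to 5.21] of the library at 12 h and 7.38% [7.35 to 7.41] at 24 h, mostly miR-182-5p.

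The summed levels of all 5 marker lists of other cell types were lower at 24 h, though single members of some lists went the other way. In bulk samples fewer cells of a type and less RNA per cell cannot be told apart. The muscle and mesoderm list summed to 610 CPM at 12 h and 528 at 24 h, and 15 of its 20 entries had no read in either library, among them miR-1a-3p, miR-133b-3p and miR-206-3p. Its 1 measured member, miR-143-3p, was at -0.24 [-0.36 to -0.11]. The fibroblast and mesenchyme list summed to 29704 and 25133 CPM, mostly miR-22-3p, with both arms of miR-214 at 0. Of its 7 measured members miR-21a-3p was called lower and none higher, beside 2.42% and 3.33% of all 330 miRNAs (median 0.23). Of the 7, 5 were above 0 and 2 below. Among the 5, miR-222-3p passed the minimum only through the 24 h library. The blood and endothelium list summed to 4166 and 3125 CPM, mostly miR-150-5p (-0.44 [-0.49 to -0.39]), with 7 of 16 entries at 0, among them miR-223-3p, miR-144-3p and miR-451a. There miR-155-5p was the 1 of 5 measured members above 0, and it passed the minimum only through the 24 h library. The endoderm list summed to 240 and 204 CPM with miR-122-5p at 0, and the neural list to 811 and 723 CPM with miR-137-3p at 0. Neither had a call (medians -0.18 and -0.31). In the endoderm list 1 of 3 measured members was above 0, miR-375-3p at 0.25 [-0.10 to 0.62]. In the neural list it was 1 of 5, miR-9-5p at 0.23 [0.05 to 0.42]. Without a minimum count the endoderm and muscle medians were above 0 (0.34 and 0.21), and with a minimum mean count of 10 the fibroblast median was -0.04. The part of these markers in the differences was not tested.

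**Figure D4:**
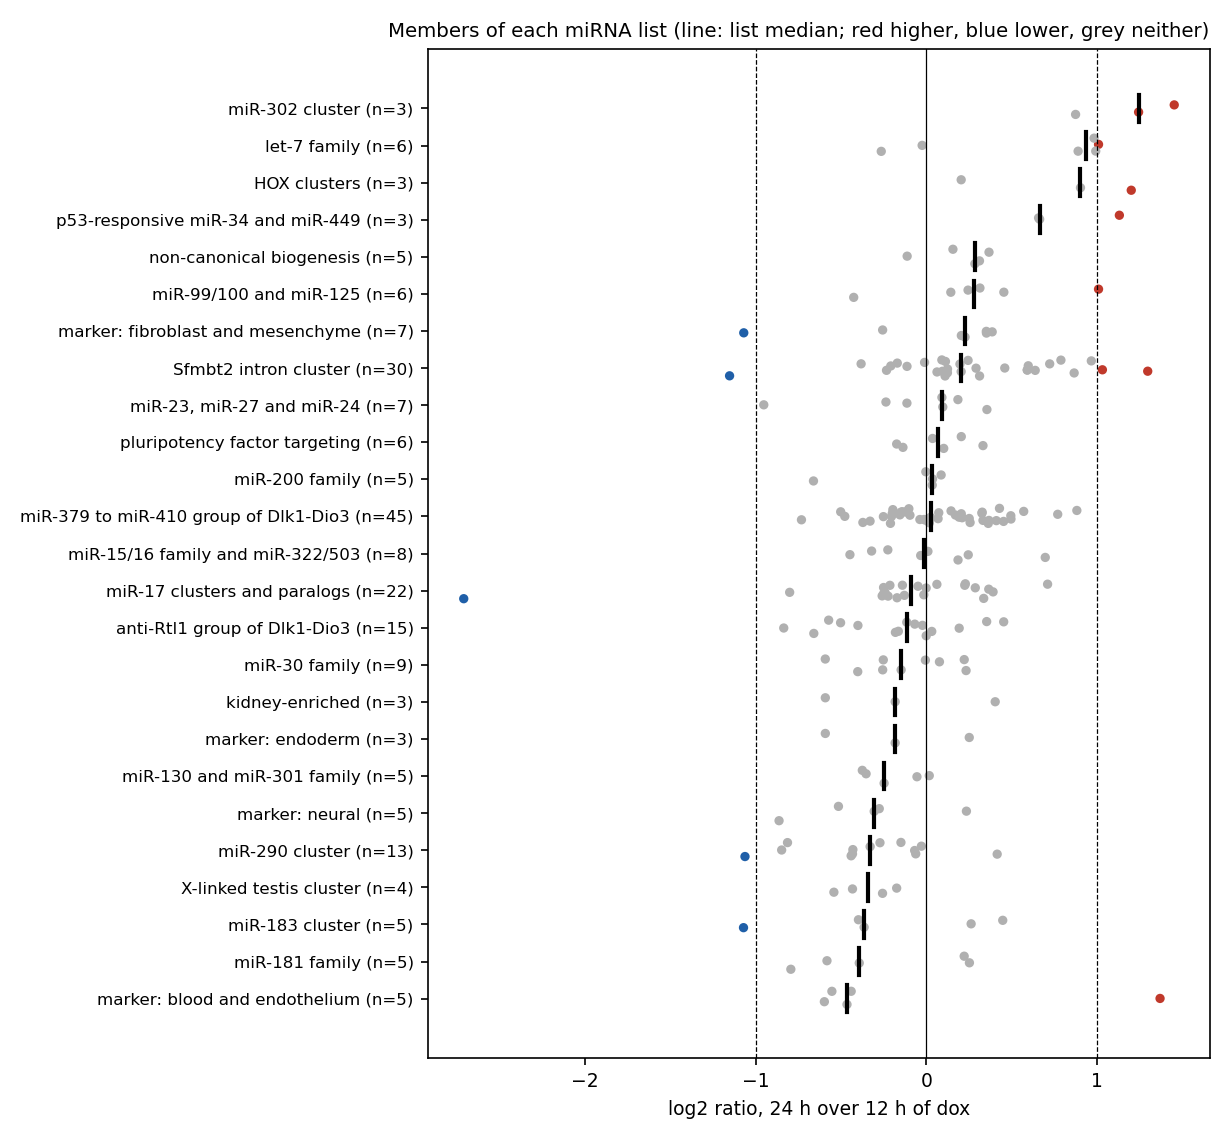
Log2 ratio of 24 h over 12 h (horizontal axis) of each measured member of the 25 lists with 3 or more members, with the list median as a black line and dashed lines at 1 and -1. The miR-302, let-7 and HOX lists have the highest medians (1.24, 0.93 and 0.90), and most points of the other lists lie between the dashed lines. Of the let-7 members, let-7a-5p and let-7f-5p passed the minimum count only through the 24 h library. The HOX median rests on 3 members and was 0.54 with a minimum mean count of 10.

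The ratios moved with the length of the mature sequence as listed in the tables, a feature the choice of members did not use. The 61 miRNAs of up to 21 nt had a median of -0.16, the 179 of 22 nt a median of 0.00 and the 90 of 23 nt or more a median of 0.19. Of the 11 higher miRNAs 7 had 23 nt or more, and of the 8 lower ones 3, among them miR-6240 at 26 nt. Over all 330, Pearson's r between ratio and length was 0.24 and Spearman's rho 0.26, across miRNAs that share 2 libraries. The miRNAs of 23 nt or more held 28.4% [28.3 to 28.4] of the reads at 12 h and 30.2% [30.2 to 30.3] at 24 h. GC content went the other way, more weakly (r of -0.19, rho of -0.10), and 10 of the 11 higher miRNAs and 4 of the 8 lower ones had under 50% GC, as had 170 of all 330. Of the called miRNAs, 6 of the 11 higher and 2 of the 8 lower passed the minimum count only through the 24 h library. The counts of called miRNAs by length and GC content are thus no separate support for a trend. Among miRNAs of 23 nt or more the median was 0.23 for the 54 with under 50% GC and 0.03 for the other 36. The members of the miR-302 cluster, at 23 nt, are among the longer ones, while those of let-7, at 22 nt, are not. Mean level and ratio had an r of -0.08. What part the length composition of the libraries has in single ratios was not tested.

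**Figure D5:**
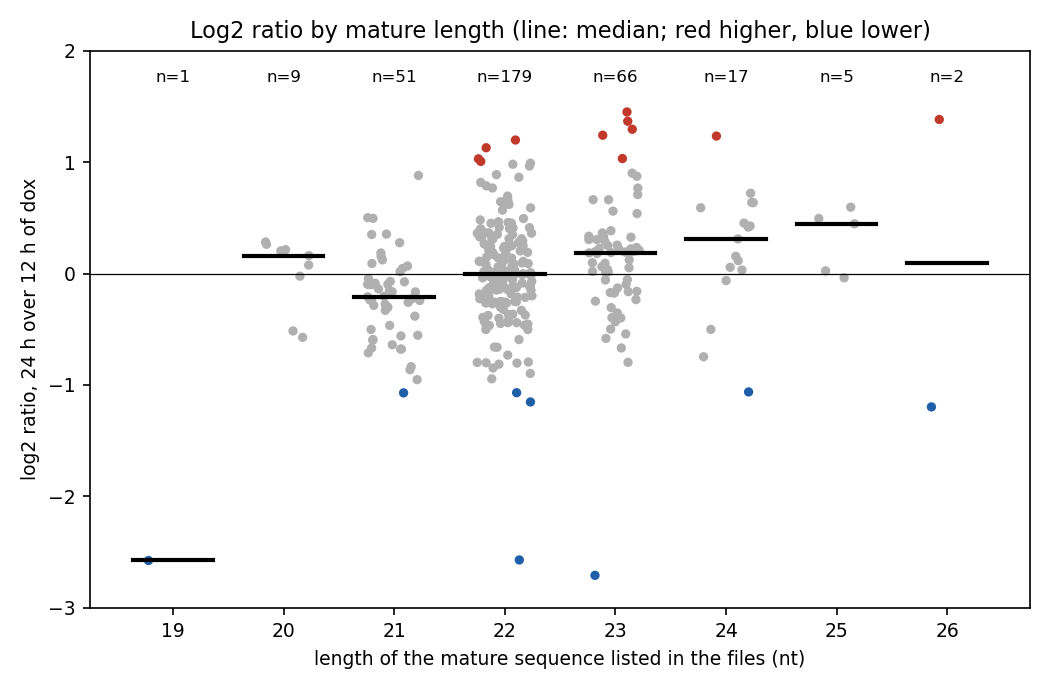
Log2 ratio of 24 h over 12 h (vertical axis) of each miRNA by the length of its mature sequence in nt (horizontal axis), with the median as a black line and the number of miRNAs above. The medians run from -0.21 at 21 nt to 0.19 at 23 nt and 0.31 at 24 nt; lengths of 19, 20, 25 and 26 nt hold few miRNAs.

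The levels of the called miRNAs in all 6 libraries of the study, on 1 scale (TMM over 6 libraries), show where the 12 h and 24 h values lie. Since these miRNAs were picked for their difference between 12 h and 24 h, one of those values tends to be extreme. Of the 11 higher miRNAs the 24 h library had the highest level of the 4 libraries without retinoic acid for 6, and the 12 h library the lowest for 5. Of the 8 lower ones the 12 h library was the highest for 6. miR-302d-3p stood at 138 CPM at 12 h and 397 at 24 h, against 102 in untreated Wt1 KO and 455 in untreated wild type. miR-302a-3p had the same order, with 64.5 and 161 CPM against 34.0 and 198. let-7e-5p was at 55.7 CPM at 12 h and 118 at 24 h, against 97.1 in untreated Wt1 KO and 496 in untreated wild type, so that the 12 h level was the lowest of these 4. miR-92a-1-5p, at 4884 CPM after 12 h and 787 after 24 h, was at 107 in untreated Wt1 KO and 1408 in untreated wild type, and at 920 in wild type and 1027 in Wt1 KO with retinoic acid. The 12 h library thus held the highest level of miR-92a-1-5p of all 6. miR-5126 was at 347 and 61.4 CPM, between 527 in untreated Wt1 KO and 37.6 in untreated wild type.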

How the data were processed

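Small RNA was sequenced from 1 library per group. Total RNA received adapters, and the amplified gel bands of about 147 bp (miRNA) and 157 bp (longer small RNA) were pooled, per the labels' protocols. The deposited tables hold read counts per mature miRNA, split per the file headers into unique matches and multi-matches. The sources used here do not give the aligner, miRBase release, build or read filters. Near-identical miRNAs may share or lose reads.

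From the unique-match counts, TMM factors (0.966 at 12 h, 1.04 at 24 h) were computed over the 2 libraries and the 330 members in edgeR 4.0.16 (R 4.3.3). Log2 ratios used a prior count of 0.5, scaled to library size. Intervals are exact conditional binomial (Clopper-Pearson) 95% intervals. With 1 library per side no test, p-value or standard error is given. The interval code was tested on simulated counts.

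RefSeq (GRCm38.p6) gave loci for 270 members by name and exact sequence. GENCODE M21 gave host genes. The members and the 27 lists were chosen with earlier results of these data known. Named miRNAs are up to 10 called per side with interval bounds farthest from 0, the 10 most abundant, up to 4 members per list with the highest mean count, other arms of called miRNAs, and the 3 entries on either side of the minimum. Outside this rule, miR-92a-2-5p, miR-291a-3p, miR-379-5p, miR-379-3p, let-7d-3p, let-7i-5p, miR-181b-5p, miR-322-5p, miR-669l-5p and miR-669f-5p were chosen after their values were seen. Alternatives covered scaling (CPM, DESeq2 1.42.0 median of ratios, TMM over 6 libraries, CPM leaving out both ES cell clusters), minimum counts, prior counts, multi-matched reads and the size rule.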

Additional observations from a re-analysis of the deposited data

Results flagged for a closer look

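Reads that matched several entries were left out of the ratios, and 3 entries had 50 or more such reads on average without any unique read in either library. The entry for miR-466p-3p, miR-466c-3p and miR-466b-3p, of the Sfmbt2 intron cluster, had 554 multi-matched reads at 12 h and 1513 at 24 h, a log2 ratio of -0.21 [-0.36 to -0.07]. miR-466p-5p had 35 and 90 such reads (-0.30 [-0.88 to 0.31]). miR-3473e had 29 and 72 (-0.35 [-0.99 to 0.32]). All 3 lie above the 3 reads that a count of 0 allows, and none passed the size rule.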

How the results depend on the processing

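No paired analysis was possible because each group has 1 library, and for the same reason no library could be left out. The counts of called miRNAs, 11 higher and 8 lower, moved by over 1.5 times as follows. As CPM of the total and with TMM over 6 libraries 5 were lower. A minimum mean count of 10 (475 miRNAs) gave 15 lower, and one of 200 (206 miRNAs) gave 4 higher and 4 lower. Without a minimum, among 957 entries, 23 were higher and 23 lower. A 1.5-fold rule gave 37 and 33, and a 4-fold rule 0 and 3, the latter being miR-92a-1-5p, miR-3963 and miR-5126. The scalings shifted the median of all miRNAs by -0.02 to 0.10. No called miRNA changed sign under an alternative, and 14 of the 19 were called under each alternative to the scaling, minimum, prior count and reads that kept them in the table. List medians ran from 0.86 to 1.34 for miR-302, from 0.92 to 1.07 for let-7 and from -0.35 to -0.22 for miR-290. The medians of 10 of the 27 lists changed sign under an alternative, 2 of them (miR-17 clusters and miR-15/16) under a scaling. Those not given with their list were miR-23, miR-27 and miR-24 without a minimum (-0.03) and miR-379 to miR-410 with a minimum of 10 (-0.02). The cause was not tested. The median half-width of the intervals was 0.26, so ratios nearer to 0 than that are mostly not resolved at this depth.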

Other observations

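Paralogs with the same seed did not all go together. The miR-181 miRNAs from 1 locus on chromosome 8 were below 0, miR-181c-5p at -0.39 [-0.45 to -0.34] and miR-181d-5p at -0.58 [-0.65 to -0.51], while miR-181a-5p, made at other loci, was at 0.25 [0.13 to 0.37] and miR-181b-5p at 0.22 [-0.10 to 0.56]. Within the miR-15/16 seed group miR-497a-5p was at -0.45 [-0.58 to -0.31] and miR-322-5p, from 27 and 139 reads, at 0.70 [0.10 to 1.35]. These are the lowest and the highest of its 6 members. miR-322-5p passed the minimum count only through the 24 h library, so its ratio is no separate support for a split of this group. The miR-200 miRNAs of 1 seed, miR-200b-3p, miR-200c-3p and miR-429-3p, lay between 0.03 and 0.09. Single abundant or mid-level miRNAs that stood below their list were miR-27a-3p, with 366 reads at 12 h and 599 at 24 h (-0.95 [-1.14 to -0.76]), and miR-341-3p of the Dlk1-Dio3 locus, with 4824 and 8566 reads (-0.84 [-0.89 to -0.78]). These were not called.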
